A study of Mus musculus with 8 samples.

Results

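The Hox genes are the homeobox genes of the Hoxa, Hoxb, Hoxc and Hoxd clusters, and they were taken here as every row of the bead array table whose gene name is one of these 4 prefixes followed by a number. This rule found 53 probes for 39 genes, among 25697 probes and 18138 gene names in all, and the RefSeq annotation of the mouse lists the same number of 39 such genes. The Hoxa cluster had 11 genes and 20 probes, the Hoxb cluster 10 genes and 13 probes, the Hoxc cluster 9 genes and 11 probes, and the Hoxd cluster 9 genes and 9 probes. For 10 genes there was more than 1 probe.

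The arrays were made from total RNA of mouse embryonic fibroblasts (MEFs), the cells of connective tissue cultured from embryos. The 4 groups of 2 arrays each were TICAM knockout cells treated with c-di-GMP, TICAM knockout cells treated with DMSO, wild-type cells treated with c-di-GMP and wild-type cells treated with DMSO. The sample titles give TICAM without a number. It was read here as Ticam1, whose product, TRIF, passes on signals of Toll-like receptors. The cyclic dinucleotide c-di-GMP is made by bacteria, and STING senses it in mammalian cells. All cells grew in DMEM with 10% serum. They were transfected for 30 min with 8 µg/ml c-di-GMP by lipofection or given the same amount of DMSO, and RNA was taken 4 h after transfection. The labels give neither the strain nor the age of the embryos, and do not say whether the arrays of a group came from separate cultures or embryos. The p-values therefore reflect the spread from array to array, which may be technical. The labels also do not say how the knockout and wild-type lines were derived, so genotype and any other difference between the lines cannot be told apart.

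Hox genes encode transcription factors that give cells of the embryo their position along the head to tail axis and along the limbs. Within a cluster the genes lie in the order in which they are used: low paralogue numbers at the 3′ end act in the hindbrain and neck, high numbers at the 5′ end in the lower trunk, the distal limb and the genital tract. Fibroblasts in culture keep much of the Hox pattern of the place they came from, held in place by Polycomb and trithorax complexes.

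The promoter windows of 4 genes are shown. The first 3 belong to the Hoxd genes that were detected on at least 3 knockout arrays and on no wild-type array. The fourth belongs to Hoxa5, which was detected on every array and was lower in knockout cells. Each window runs from 250 bases before to 50 bases after the gene's start in RefSeq, on build GRCm38.p6. Hoxd4 lies at chr2:74721728-74722027 on the plus strand, Hoxd8 at chr2:74704365-74704664 on the plus strand, Hoxd9 at chr2:74697513-74697812 on the plus strand and Hoxa5 at chr6:52204538-52204837 on the minus strand. Capitals mark matches on either strand to the TATA box TATAAA, the CCAAT box CCAAT, the GC box GGGCGG and the nuclear receptor half-site AGGTCA.
Hoxd4: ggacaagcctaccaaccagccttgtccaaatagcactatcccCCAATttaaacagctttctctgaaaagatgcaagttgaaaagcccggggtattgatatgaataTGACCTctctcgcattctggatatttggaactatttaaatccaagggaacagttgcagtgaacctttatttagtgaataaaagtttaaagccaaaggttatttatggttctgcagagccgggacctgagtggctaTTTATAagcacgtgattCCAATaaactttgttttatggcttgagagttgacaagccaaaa
Hoxd8: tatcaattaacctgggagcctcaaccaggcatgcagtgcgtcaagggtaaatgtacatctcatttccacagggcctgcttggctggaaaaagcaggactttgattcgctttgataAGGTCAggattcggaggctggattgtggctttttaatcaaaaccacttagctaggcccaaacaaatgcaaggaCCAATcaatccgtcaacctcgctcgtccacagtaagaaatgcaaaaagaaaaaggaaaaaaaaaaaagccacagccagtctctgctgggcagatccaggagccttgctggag
Hoxd9: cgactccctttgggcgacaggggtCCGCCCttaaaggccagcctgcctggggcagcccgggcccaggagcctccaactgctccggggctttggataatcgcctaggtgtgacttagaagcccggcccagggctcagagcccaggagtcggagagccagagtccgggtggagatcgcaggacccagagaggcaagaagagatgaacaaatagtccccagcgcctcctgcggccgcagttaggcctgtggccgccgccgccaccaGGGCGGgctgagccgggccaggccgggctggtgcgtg
Hoxa5: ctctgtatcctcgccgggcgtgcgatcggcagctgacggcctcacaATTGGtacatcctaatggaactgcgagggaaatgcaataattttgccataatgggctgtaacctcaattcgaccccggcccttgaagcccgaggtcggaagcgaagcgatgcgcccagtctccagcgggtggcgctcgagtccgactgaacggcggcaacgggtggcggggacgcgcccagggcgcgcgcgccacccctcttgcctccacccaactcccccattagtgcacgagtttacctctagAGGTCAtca

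The Hoxd4 window held 1 TATA box, 2 CCAAT boxes and 1 half-site, the Hoxd8 window and the Hoxa5 window each held 1 CCAAT box and 1 half-site, and the Hoxd9 window held 2 GC boxes. None of the 4 windows held the homeodomain core TAATTA or the PBX-HOX composite motif TGATTNAT. CpG dinucleotides numbered 4 in the Hoxd4 window, 6 in the Hoxd8 window, 20 in the Hoxd9 window and 29 in the Hoxa5 window, against a median of 14.5 over the Hox windows and 7 over all 32851 windows of the table (lower and upper quartiles 3 and 20). The table holds 24 windows for 22 of the 39 Hox genes. The CCAAT box stood in 62.5% of the Hox windows and 37.4% of all windows, the GC box in 41.7% and 35.7%, the half-site in 29.2% and 16.3%, the TATA box in 16.7% and 13.6%, TAATTA in 8.33% and 5.29%, and TGATTNAT in 8.33% and 3.22%. The motifs do not overlap each other in letters, and a match describes the letters of the window only.

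One array stood apart. On 7 arrays 11254 to 11657 probes had a detection p under 0.05, the rule used here for "detected", and on the second knockout DMSO array there were 6468. There the signal at the 99th percentile was 7.55 times that at the 5th, against 38.3 to 83 times on the others, and the lowest detected value on the normalised log2 scale was 7.53, against 5.36 to 5.45. It correlated with the first knockout DMSO array at 0.833 across probes, while the pairs of the other groups reached 0.984 to 0.993. This weak array stays in the reported values. The counts, and the differences of Hox genes and other named genes that move with it, are also given without it. A probe that it did not detect has no measured level there. Of 12 fibroblast markers, 8 were detected on all 8 arrays. The 2 Ticam1 probes lay near background in both genotypes (signals of 110.3 to 167.9 on the knockout arrays and 85.3 to 157.2 on the wild-type arrays). The sources used here do not say whether these probes lie inside the deletion, so they check no label.

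Which Hox genes could be measured differed by cluster. Knockout and wild-type cells shared a set of Hoxa, Hoxb and Hoxc genes, while Hoxd genes were detected almost only in knockout cells. Leaving the weak array aside, 20 Hox genes were detected on all 3 knockout arrays and 15 on all 4 wild-type arrays, and the 15 were all among the 20. The 5 others were Hoxa9, Hoxd4, Hoxd8, Hoxd9 and Hoxd10. The arrays of cells given c-di-GMP detected 22 and 22 Hox genes in knockouts, against 15 and 16 in wild-type cells. With DMSO the numbers were 22 and, on the weak array, 9 in knockout cells, against 18 and 17 in wild-type cells. Of the Hoxd cluster alone, 4, 5, 5 and (weak array) 2 genes were detected on the knockout arrays, against 0, 0, 0 and 1 on the wild-type arrays.

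Hoxd4, Hoxd8 and Hoxd9 were detected on the 3 knockout arrays and on none of the 4 wild-type arrays, which is 7.69% of the 39 Hox genes, where 183 of 17901 genes on the array, or 1.02%, had that pattern. The opposite pattern, detected on the 4 wild-type arrays and on none of the 3 knockout arrays, held for 0 Hox genes and for 278 genes, or 1.55%. Both genotypes read mostly the low and middle paralogue numbers. Of the 27 genes numbered 1 to 9, 18 were detected on the 3 knockout arrays and 14 on the 4 wild-type arrays. Of the 12 genes numbered 10 to 13, these numbers were 2 (Hoxa13 and Hoxd10) and 1 (Hoxa13).

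**Figure D1:**
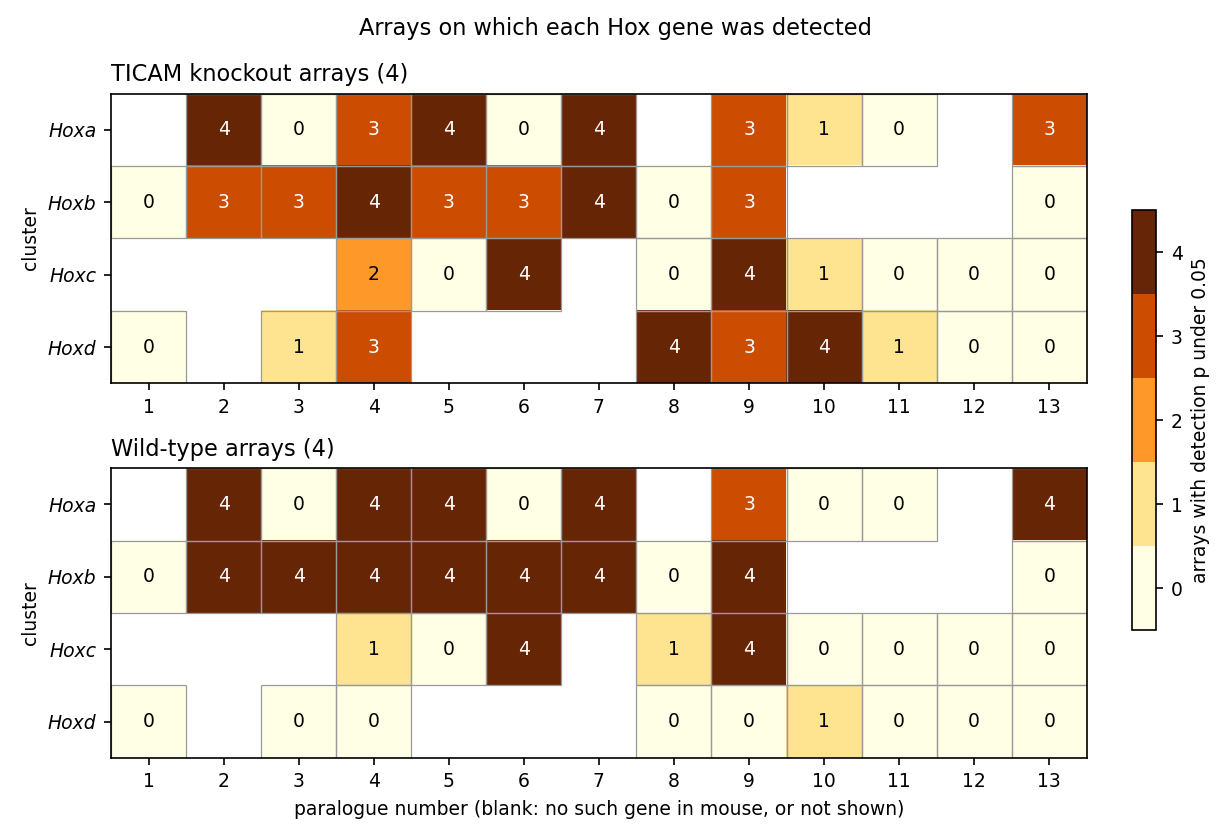
Number of arrays, of 4 knockout arrays (upper map) and 4 wild-type arrays (lower map), on which at least 1 probe of 38 of the 39 Hox genes had a detection p under 0.05, by cluster (rows) and paralogue number (columns); a blank cell is a gene that mice lack or that is not shown. In the Hoxd row the knockout map shows 3, 4, 3 and 4 arrays for Hoxd4, Hoxd8, Hoxd9 and Hoxd10, and the wild-type map 0, 0, 0 and 1; knockout counts of 3 are the arrays other than the weak one.

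Undetected on all 8 arrays were 13 genes: Hoxa3, Hoxa6, Hoxa11, Hoxb1, Hoxb8, Hoxb13, Hoxc5, Hoxc11, Hoxc12, Hoxc13, Hoxd1, Hoxd12 and Hoxd13. A further 5 were detected on 1 array each: Hoxa10, Hoxc10, Hoxd3 and Hoxd11 on a knockout array and Hoxc8 on a wild-type array. In all, 23 of the 53 probes were detected on no array, with signals of 77 to 158 on the 7 brighter arrays and 124.5 to 208 on the weak array, the level at which a probe cannot be told from background. Hoxb13, Hoxc13 and Hoxd13, the genes of the tail end of their clusters, and Hoxd12 were in this set, while Hoxa13, needed for digits and the genital tract, was detected by 1 of its 3 probes. Its signals were 197, 206, 207 and (weak array) 168 on the knockout arrays, against 92.5, 264, 196 and 152 on the wild-type arrays, and the genotypes overlapped.

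The test of the levels covered the 21 Hox genes that had a probe detected on at least 2 arrays, out of 9559 genes. Values are log2 intensities after background correction and quantile normalisation, a difference is knockout minus wild type with its standard error (SE), and "passed" means a limma p adjusted over all 9559 genes below 0.05. With c-di-GMP 7 Hox genes passed: Hoxd8 and Hoxd9 were higher in knockout cells, and Hoxa5, Hoxb2, Hoxb5, Hoxb6 and Hoxb7 were lower. With DMSO the same genes other than Hoxb2 passed, in the same directions. The 7 of 21 are 33.3%, where 13.9% of all genes tested passed (5.8% higher and 8.1% lower). The 6 of 21 with DMSO are 28.6%, against 12.7% of all genes (5.22% higher and 7.46% lower). Both counts include Hoxd8 and Hoxd9, which entered the test only through the knockout arrays on which they were high. Their part in these shares therefore says nothing beyond their own values. Both comparisons are given side by side. Their groups share no array, but the fit takes 1 estimate of the spread from all 8 arrays. The weak array therefore also enters the SE and p-values with c-di-GMP. The 2 knockout groups and the 2 wild-type groups may each come from 1 line of cells.

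Hoxd8 showed the most pronounced difference of the Hox genes tested. It is one of the central genes of the Hoxd cluster and acts in the trunk. Its signals on the scanner's linear scale were 1721 and 1782 in knockout cells given c-di-GMP, 1835 and (weak array) 454 in those given DMSO, against 83.1 and 120.2 in wild-type cells given c-di-GMP, and 130.2 and 109 in those given DMSO. Every knockout array was above every wild-type array, and the probe was not detected on any wild-type array. On the log2 scale, and with c-di-GMP, knockout cells averaged 10.33 ± 0.09 and wild-type cells 4.77 ± 0.06 (SD, n = 2 each). Hoxd8 was therefore at least 29.6-fold higher in knockouts given c-di-GMP and at least 32.9-fold higher with DMSO. These bounds set the mean of the bright group against, on each dim array, the lowest value that counted as detected. The fitted differences were 5.56 ± 0.25 with c-di-GMP (limma adjusted p = 4.31e-05) and 5.54 ± 0.25 with DMSO (limma adjusted p = 7.91e-05). In bulk RNA, fewer cells that express a gene and less RNA per cell cannot be told apart.

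Hoxd9, which with its paralogues patterns the lumbar region and the upper limb, had signals of 325 and 279 in knockout cells given c-di-GMP, 272 and (weak array) 201 in those given DMSO. Wild-type cells read 79.9 and 103.8 when given c-di-GMP, and 123 and 90.6 when given DMSO. It was detected on all knockout arrays but the weak one and on no wild-type array, and the 3 brighter knockout arrays lay above all wild-type arrays. Hoxd9 was at least 3.62-fold higher in knockouts given c-di-GMP. The 2.54-fold found in the same way with DMSO takes in the weak array, which did not detect Hoxd9, and is not a bound. The fitted differences were 2.69 ± 0.30 (limma adjusted p = 0.00185) and 2.10 ± 0.30 (limma adjusted p = 0.0064), and without the weak array 2.86 ± 0.22 and 2.46 ± 0.27, which also passed.

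Hoxd4, which acts in the hindbrain and neck, had signals of 325 and 387 in knockout cells given c-di-GMP, 381 and (weak array) 168 in those given DMSO. Wild-type cells read 85.2 and 107 when given c-di-GMP, and 118 and 85.2 when given DMSO. The 3 brighter knockout arrays were well above all wild-type arrays, and the weak array, where Hoxd4 was not detected, lay much closer to them. With all arrays Hoxd4 differed by 2.90 ± 0.76 with c-di-GMP (at least 4.59-fold higher) and 1.76 ± 0.76 with DMSO, and did not pass (limma adjusted p = 0.050022 and 0.173). The 1.90-fold found with DMSO takes in the undetected value of the weak array and is not a bound. With c-di-GMP the SD was 0.10 in knockouts and 0.15 in wild types. The SE of 0.76 also takes in the knockout DMSO group, with its SD of 1.87. Leaving the weak array out gave differences of 3.07 ± 0.17 and 3.26 ± 0.21, which both passed (limma adjusted p = 2.78e-05 and 0.000115). Hoxd8, Hoxd9 and Hoxd4 entered the test through their knockout arrays alone, so their count among the genes tested says nothing beyond their own values.

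Hoxd10, a gene of the lower spinal cord and hindlimb, was detected on all 4 knockout arrays and 1 wild-type array. Its signals were 142 and 184 in knockout cells given c-di-GMP, 185 and (weak array) 234 in those given DMSO, against 79.6 and 151 in wild-type cells given c-di-GMP, and 129.9 and 129.6 in those given DMSO. The differences of 0.75 ± 0.67 (limma adjusted p = 0.551) and 1.70 ± 0.67 (limma adjusted p = 0.142) did not pass, nor did those without the weak array, 0.80 ± 0.40 and 0.80 ± 0.49. No wild-type array given c-di-GMP detected Hoxd10, and with that treatment it was at least 1.23-fold higher in knockouts. Hoxd3 and Hoxd11 were detected on 1 knockout array each, and Hoxd1, Hoxd12 and Hoxd13 on no array. In GRCm38.p6 the gene bodies of Hoxd3 and Hoxd4 overlap, as do those of Hoxd10 and Hoxd11, Hoxb3 and Hoxb4, and Hoxa3 with each of Hoxa4, Hoxa5 and Hoxa6. The sources used here do not say which transcripts a probe reads there.

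**Figure D2:**
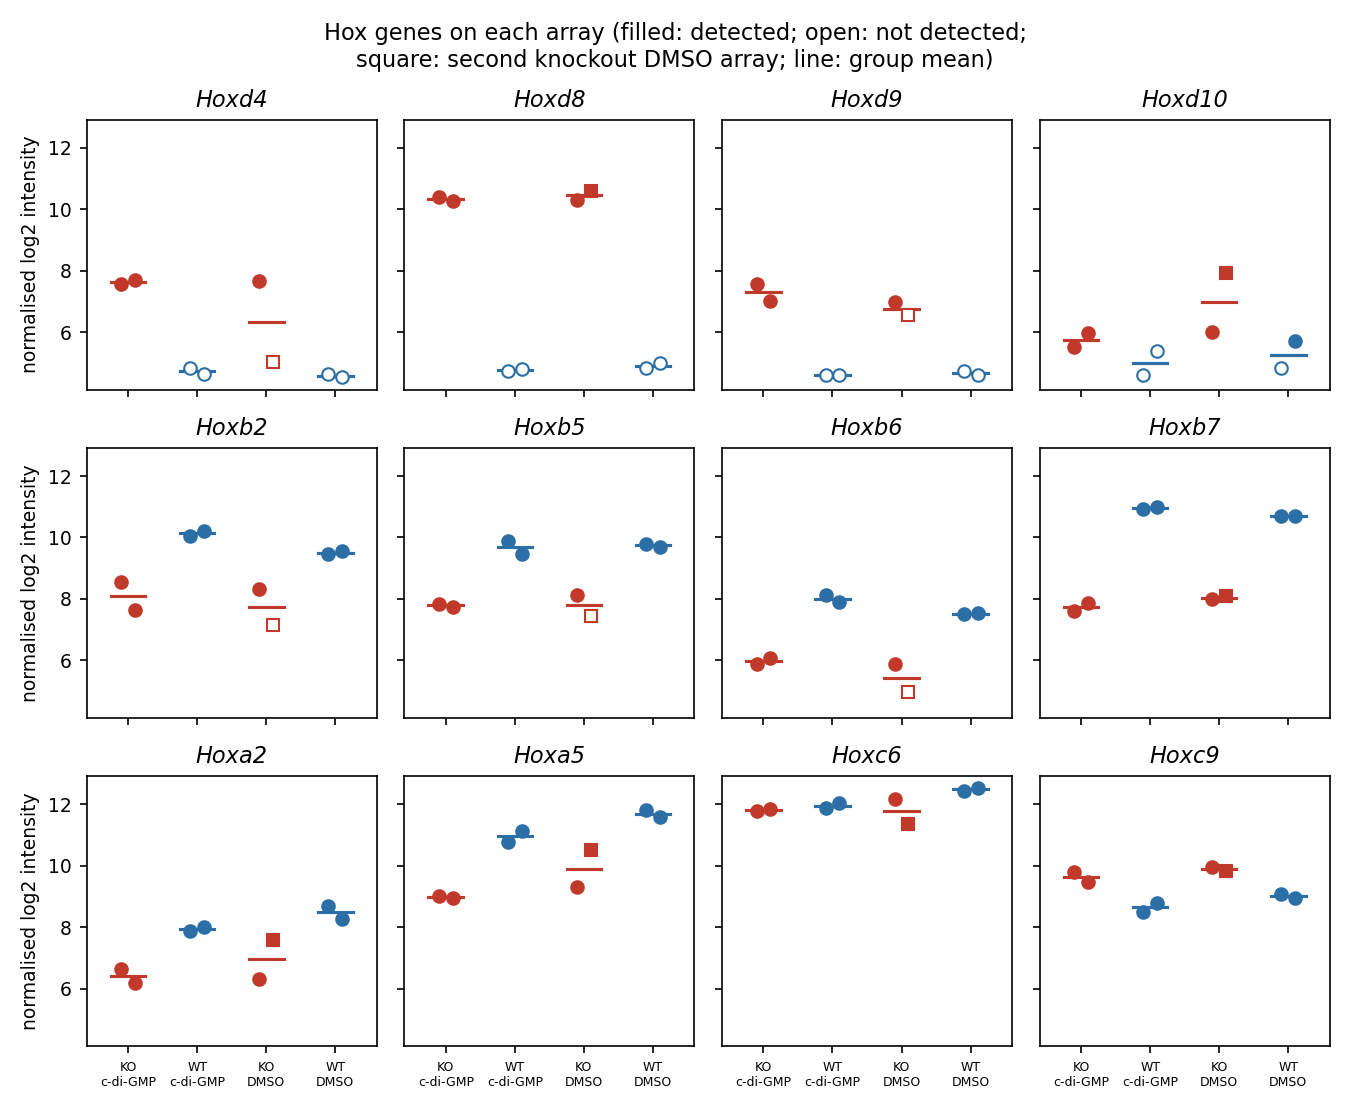
Normalised log2 intensity of 12 Hox genes on each of the 8 arrays, knockout groups in red and wild-type groups in blue, with filled points where the probe was detected, a square for the weak array and a line for the group mean. Hoxd8 lies at 10.26 to 10.61 on the knockout arrays and at 4.73 to 4.99 on the wild-type arrays, while Hoxb7 lies at 7.61 to 8.09 on the knockout arrays and at 10.69 to 10.99 on the wild-type arrays.

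In the Hoxb cluster the same 7 genes, Hoxb2 to Hoxb7 and Hoxb9, were detected in both genotypes, and their levels differed. From Hoxb2 to Hoxb7 the 3 brighter knockout arrays lay below all 4 wild-type arrays on the log2 scale, and Hoxb9 alone overlapped. The weak array detected Hoxb4 and Hoxb7, both below the wild-type arrays, and did not detect the other 5. Hoxb7, a trunk gene and the clearest of them, had signals of 331 and 424 in knockout cells given c-di-GMP, 453 and (weak array) 239 in those given DMSO, against 827 and 2881 in wild-type cells given c-di-GMP, and 2280.3 and 1443 in those given DMSO. Of the wild-type arrays with c-di-GMP, the first was dimmer, with a mean signal over all probes of 252.6, against 640.3 on the second. After normalisation Hoxb7 averaged, with c-di-GMP, 7.74 ± 0.18 in knockouts and 10.96 ± 0.03 in wild types (SD, n = 2 each). It fell by 3.23 ± 0.24 with c-di-GMP (limma adjusted p = 0.000381) and fell by 2.65 ± 0.24 with DMSO (limma adjusted p = 0.0011) in knockout cells.

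Hoxb6, a trunk gene also used in the early limb, had log2 values of 5.89 and 6.09 in knockout cells given c-di-GMP, 5.90 and (weak array) 4.97 in those given DMSO, against 8.14 and 7.89 in wild-type cells given c-di-GMP, and 7.52 and 7.53 in those given DMSO. It fell in knockout cells by 2.03 ± 0.35 with c-di-GMP (limma adjusted p = 0.0115) and fell by 2.09 ± 0.35 with DMSO (limma adjusted p = 0.0124). Hoxb5, a gene of the neck and shoulder level, had log2 values of 7.84 and 7.75 in knockout cells given c-di-GMP, 8.14 and (weak array) 7.44 in those given DMSO, against 9.88 and 9.47 in wild-type cells given c-di-GMP, and 9.78 and 9.70 in those given DMSO. It fell by 1.88 ± 0.32 with c-di-GMP (limma adjusted p = 0.0108) and fell by 1.95 ± 0.32 with DMSO (limma adjusted p = 0.0113). For both genes the 3 brighter knockout arrays lay more than 1 log2 unit below every wild-type array. The weak array detected neither, and for Hoxb6 its lowest detected value of 7.53 is level with the wild-type values with DMSO. Without it Hoxb6 fell by 2.11 ± 0.18 with c-di-GMP and fell by 1.71 ± 0.22 with DMSO, and Hoxb5 fell by 1.90 ± 0.19 and fell by 1.61 ± 0.23, and all 4 passed.

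Hoxb2, a hindbrain gene, had log2 values of 8.56 and 7.63 in knockout cells given c-di-GMP, 8.32 and (weak array) 7.14 in those given DMSO, against 10.06 and 10.22 in wild-type cells given c-di-GMP, and 9.47 and 9.55 in those given DMSO. Its 2 knockout arrays with c-di-GMP differed by about 1 log2 unit, and the weak array did not detect it. It fell by 2.04 ± 0.47 with c-di-GMP (limma adjusted p = 0.0328). With DMSO the difference of -1.78 ± 0.47 just missed the threshold (limma adjusted p = 0.0548), also without the weak array (-1.20 ± 0.37, limma adjusted p = 0.0515).

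Hoxb4, known for expanding blood stem cells when overexpressed, had log2 values of 9.08 and 9.02 in knockout cells given c-di-GMP, 8.98 and (weak array) 7.78 in those given DMSO, against 10.14 and 10.23 in wild-type cells given c-di-GMP, and 9.76 and 9.67 in those given DMSO. The differences of -1.14 ± 0.40 and -1.33 ± 0.40 did not pass with all arrays (limma adjusted p = 0.121 and 0.0777) and passed without the weak one (-1.14 ± 0.16 and -0.74 ± 0.19, limma adjusted p = 0.00134 and 0.0292). For Hoxb3 the brightest probe read 6.18 and 6.16 in knockout cells given c-di-GMP, 6.72 and (weak array) 5.15 in those given DMSO, against 7.16 and 7.51 in wild-type cells given c-di-GMP, and 7.14 and 7.29 in those given DMSO. Its differences of -1.16 ± 0.49 and -1.28 ± 0.49 did not pass; without the weak array the difference with c-di-GMP passed (-1.22 ± 0.18, limma adjusted p = 0.00216) and that with DMSO did not (-0.51 ± 0.23, limma adjusted p = 0.137). The other 2 Hoxb3 probes were detected on no knockout array and on 2 and 1 wild-type arrays.

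Hoxb9, the gene of the lower thorax, had log2 values of 7.00 and 7.29 in knockout cells given c-di-GMP, 7.12 and (weak array) 5.54 in those given DMSO, against 6.92 and 7.09 in wild-type cells given c-di-GMP, and 7.31 and 7.48 in those given DMSO. Its difference was 0.14 ± 0.50 with c-di-GMP and -1.07 ± 0.50 with DMSO; without the weak array it was 0.14 ± 0.18 and -0.28 ± 0.23. None of these passed. Without that array the 95% intervals ran from -0.29 to 0.58 and from -0.82 to 0.25, so that a 2-fold difference lies outside both.

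In the Hoxa cluster 7 genes were measured, and Hoxa5 alone passed with all arrays. Hoxa5, needed for lung and neck development, had signals of 721 and 788 in knockout cells given c-di-GMP, 973 and (weak array) 436 in those given DMSO, against 725 and 3207 in wild-type cells given c-di-GMP, and 4733 and 2539 in those given DMSO. On the normalised log2 scale these were 9.02, 8.96, 9.31 and (weak array) 10.50 in knockout cells, against 10.76, 11.14, 11.81 and 11.57 in wild-type cells. The genotypes did not overlap, and the weak array lay nearest to the wild-type arrays. Hoxa5 fell in knockout cells by 1.96 ± 0.41 with c-di-GMP (limma adjusted p = 0.0244) and fell by 1.78 ± 0.41 with DMSO (limma adjusted p = 0.0377). When the weak array was left out it fell by 1.97 ± 0.20 with c-di-GMP and fell by 2.39 ± 0.24 with DMSO.

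Hoxa2, which sets the identity of the second pharyngeal arch, was detected on all 8 arrays by its brighter probe. That probe had log2 values of 6.63 and 6.18 in knockout cells given c-di-GMP, 6.31 and (weak array) 7.59 in those given DMSO, against 7.87 and 7.99 in wild-type cells given c-di-GMP, and 8.69 and 8.28 in those given DMSO. All knockout arrays were below all wild-type arrays. The differences of -1.53 ± 0.45 and -1.54 ± 0.45 did not pass (limma adjusted p = 0.0726 and 0.073), and passed without the weak array (-1.58 ± 0.23 and -2.24 ± 0.28, limma adjusted p = 0.00181 and 0.00185). The other Hoxa2 probe was detected on 1 knockout array and 4 wild-type arrays. Where every probe was tested by itself it differed by -1.88 ± 0.39 and -2.62 ± 0.39 and passed both times (limma adjusted p = 0.0251 and 0.00866). Neither knockout DMSO array detected it, so its difference with DMSO is read against background. The probes shared their direction and not the call.

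Hoxa4 had log2 values of 6.09 and 6.38 in knockout cells given c-di-GMP, 6.02 and (weak array) 4.60 in those given DMSO, against 6.83 and 6.51 in wild-type cells given c-di-GMP, and 6.92 and 6.94 in those given DMSO. Hoxa7, a trunk gene, had 10.12 and 10.45 in knockout cells given c-di-GMP, 10.56 and (weak array) 10.82 in those given DMSO, against 10.70 and 10.70 in wild-type cells given c-di-GMP, and 11.09 and 11.24 in those given DMSO. Hoxa4 was lower on the 3 brighter knockout arrays than on any wild-type array and was not detected on the weak array. For Hoxa7 the genotypes overlapped over the 8 arrays. Hoxa9, known from blood stem cells and leukaemia, had 6.89 and 6.69 in knockout cells given c-di-GMP, 6.80 and (weak array) 4.81 in those given DMSO, against 5.37 and 5.97 in wild-type cells given c-di-GMP, and 6.31 and 5.65 in those given DMSO.

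Of these 3 genes and Hoxa13 none passed with all arrays. The differences with c-di-GMP were -0.44 ± 0.46 for Hoxa4, -0.42 ± 0.26 for Hoxa7, 1.12 ± 0.64 for Hoxa9 and 0.17 ± 0.58 for Hoxa13. With DMSO they were -1.62 ± 0.46 for Hoxa4, -0.48 ± 0.26 for Hoxa7, -0.18 ± 0.64 for Hoxa9 and -0.56 ± 0.58 for Hoxa13. When the weak array was omitted, Hoxa9 (1.20 ± 0.31) passed with c-di-GMP and Hoxa4 (-0.96 ± 0.24) passed with DMSO, with limma adjusted p = 0.0184 and 0.025. With that array left out, Hoxa9 was higher on each knockout array than on any wild-type array. A second Hoxa9 probe was detected on 3 knockout and 2 wild-type arrays, and the remaining probe on none.

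In the Hoxc cluster Hoxc6 and Hoxc9 were detected on all 8 arrays. Hoxc6, a gene of the forelimb and upper thoracic level, had signals of 4314 and 5143 in knockout cells given c-di-GMP, 6512 and (weak array) 597 in those given DMSO, against 1628 and 5954 in wild-type cells given c-di-GMP, and 7095 and 4726.5 in those given DMSO. The linear values overlapped, and after normalisation the differences were -0.14 ± 0.32 with c-di-GMP and -0.71 ± 0.32 with DMSO, neither of which passed. Its 95% intervals ran from -0.91 to 0.63 and from -1.48 to 0.06, and without the weak array from -0.52 to 0.24 and from -0.76 to 0.16. With c-di-GMP and all arrays, Hoxc6 was 1 of 21 Hox genes, and the sole one, whose interval lay within a 2-fold difference either way.

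Hoxc9, which sets the thoracic identity of motor neurons, had log2 values of 9.80 and 9.48 in knockout cells given c-di-GMP, 9.96 and (weak array) 9.84 in those given DMSO, against 8.49 and 8.79 in wild-type cells given c-di-GMP, and 9.09 and 8.95 in those given DMSO. All knockout arrays were above all wild-type arrays. The differences of 1.00 ± 0.26 and 0.88 ± 0.26 lay just outside the threshold (limma adjusted p = 0.050033 and 0.0768), and without the weak array 1.01 ± 0.20 and 0.94 ± 0.24 passed (limma adjusted p = 0.00615 and 0.0278). Hoxc4 was detected on 2 knockout arrays and 1 wild-type array, near background. No wild-type array given c-di-GMP detected Hoxc4, so its difference with c-di-GMP is read against background. Its signals were 151 and 133 in knockout cells given c-di-GMP, 187 and (weak array) 219 in those given DMSO, against 85.9 and 139 in wild-type cells given c-di-GMP, and 159 and 101 in those given DMSO, and its differences of 0.30 ± 0.53 and 1.65 ± 0.53 did not pass, nor did those without the weak array, 0.33 ± 0.34 and 1.02 ± 0.42.

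**Figure D3:**
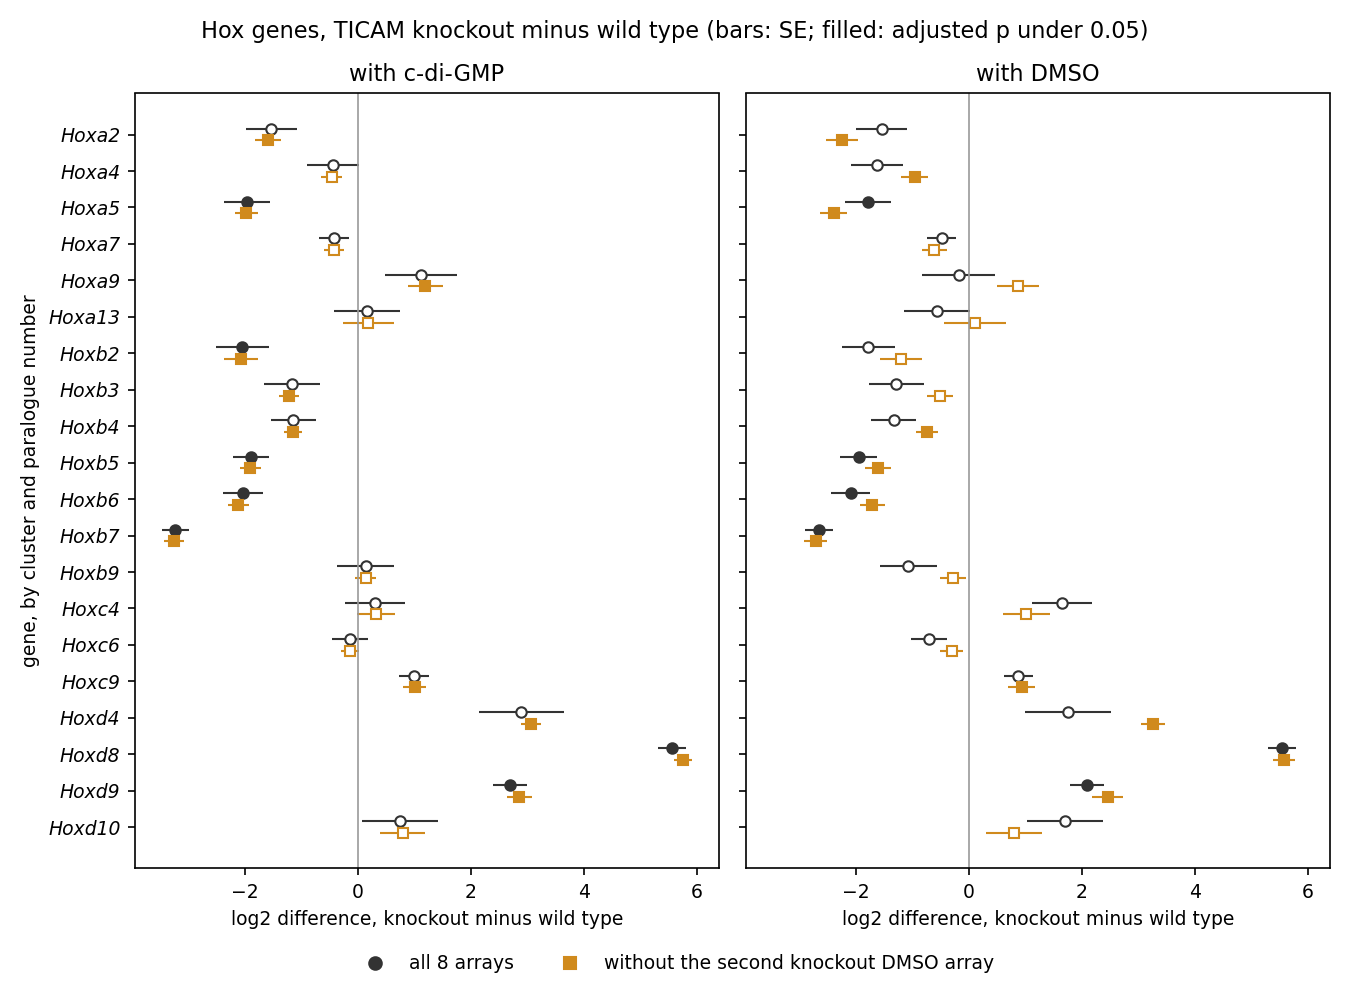
Log2 difference, knockout minus wild type, of 20 of the 21 Hox genes tested, with c-di-GMP (left) and with DMSO (right), as black circles with all 8 arrays and orange squares without the weak array; bars are the SE and filled symbols passed at a limma adjusted p under 0.05. Hoxb2 to Hoxb7 lie left of 0 in both panels and Hoxd4, Hoxd8, Hoxd9 and Hoxd10 right of it.

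Over the clusters, the Hox genes that differed by genotype were thus not shifted one way. On the log2 scale 10 of the 21 genes had the 3 brighter knockout arrays below all 4 wild-type arrays (Hoxa2, Hoxa4, Hoxa5, Hoxa7 and Hoxb2 to Hoxb7), where 23.8% of all genes tested did. A further 5 had them above (Hoxa9, Hoxc9, Hoxd4, Hoxd8 and Hoxd9), where 28.7% of all genes did. With the weak array counted as well, these numbers were 9 below, where 18.2% of all genes were, and 4 above, where 16.8% were. That array did not detect Hoxa4, Hoxb2, Hoxb3, Hoxb5, Hoxb6, Hoxd4 or Hoxd9, so its place for these genes is read from background. The median difference of the 21 genes was -0.14 with c-di-GMP and -0.71 with DMSO, beside 0.10 and -0.11 over all genes tested. Setting the genes undetected in wild-type cells at their fold against the lowest detected value left it there. At an unadjusted p under 0.05 the numbers were 11 and 14 of 21, where 27.5% and 30.4% of all genes had one. With the weak array left out, 14 genes (6 higher, 8 lower) passed with c-di-GMP and 11 (4 higher, 7 lower) with DMSO. These are 66.7% and 52.4%, while 44.3% (23.8% higher, 20.5% lower) and 27.8% (13.8% higher, 14% lower) of all genes passed. Both counts include Hoxd4, Hoxd8 and Hoxd9, which entered the test through their knockout arrays alone. At an unadjusted p under 0.05 there were then 14 in either treatment, where 52.4% and 40.6% of all genes had one.

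The counts moved with single arrays. Among cells given c-di-GMP, leaving out either knockout array gave 3 Hox genes that passed, where 4% (array 1) and 4.1% (array 2) of all genes did. Leaving out a wild-type array gave 3 (array 1) or 4 (array 2), where 4.52% and 5.63% of all genes passed. Leaving out either knockout DMSO array gave 14, where 45.8% (array 1) and 44.3% (the weak array) of all genes passed. Among cells given DMSO, 2 passed when either wild-type array was left out, where 2.93% (array 1) and 2.86% (array 2) of all genes did. There were 17 when knockout array 1 was left out, so that the weak array stood alone in its group, where 65.3% of all genes passed. The shares over all genes thus moved with the Hox counts. Beside the reported fit, Hoxd8 passed with c-di-GMP under 15 of 15 alternative settings, and Hoxb7 and Hoxd9 under 14. With DMSO Hoxd8 and Hoxb7 passed under 14 settings and Hoxd9, Hoxb5 and Hoxb6 under 12. The least stable calls were Hoxa5 (8 settings with c-di-GMP, 6 with DMSO) and Hoxb2 (7 and 3). The direction of each of these genes was the same under all 15 settings.

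No effect of c-di-GMP on a Hox gene passed the test. In knockout cells 0 of 21 Hox genes passed, where 0% of all genes did, and in wild-type cells 0 of 21, where 0.596% of all genes did. The number at an unadjusted p under 0.05 was 1 in knockout cells (Hoxc4, -1.41 ± 0.53, limma adjusted p = 0.529) and 0 in wild-type cells, where 2.66% and 6.7% of all genes had one. The Hoxc4 difference takes in the weak array, which did not detect it, and was -0.77 ± 0.42 without that array. The differences, c-di-GMP minus DMSO, spread from -1.41 to 1.29 in knockout cells and from -0.73 to 0.63 in wild-type cells. Omitting the weak array, they spread from -0.77 to 0.34 in knockout cells, and again 0 genes passed in either genotype, where 0% of all genes did in knockout cells and 5.76% in wild-type cells. An unadjusted p under 0.05 was then found for 1 gene in knockout cells (Hoxb3, -0.58 ± 0.23), where 2.39% of all genes had one. In wild-type cells it was found for 7, where 21.3% of all genes had one. The smallest adjusted p in wild-type cells was that of Hoxa5 (limma adjusted p = 0.0872).

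The data limit how large an effect of c-di-GMP could be, more closely for some genes than for others. These limits were read only for genes detected in the genotype concerned, 21 in knockout cells and 18 in wild-type cells, where no array detected Hoxd4, Hoxd8 or Hoxd9. With all arrays the 95% interval of the difference, not adjusted for the number of genes, stayed within a 2-fold change either way for 5 genes in knockout cells (Hoxb5, Hoxb7, Hoxc6, Hoxc9 and Hoxd8) and for 2 in wild-type cells (Hoxb5 and Hoxb7). It did so without the weak array for 16 genes in knockout cells and 11 in wild-type cells. The interval bounds reached from -2.82 for Hoxd10 to 3.10 for Hoxd4 in knockout cells, the second resting on a weak array that did not detect Hoxd4, and from -1.86 for Hoxd10 to 1.75 for Hoxb2 in wild-type cells. For Hoxd8 the difference was -0.13 ± 0.25 in knockout cells. For Hoxb7 the differences were -0.31 ± 0.24 in knockout cells and 0.27 ± 0.24 in wild-type cells.

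The response of knockout cells minus that of wild-type cells passed for 0 of 21 Hox genes, where 0.0418% of all genes passed, and 0 had an unadjusted p under 0.05, where 5.28% of all genes did. It spread from -1.34 to 1.30. Without the weak array 1 gene had an unadjusted p under 0.05 and 0 passed, where 11.5% and 0.548% of all genes did. Of the 18 genes detected in both genotypes, 1 (Hoxa7) with all arrays and 4 without the weak array had a 95% interval within a 2-fold change. When the first knockout DMSO array was left out, so that the weak array stood alone, 13 Hox genes passed for c-di-GMP in knockout cells and 9 for the difference, where 58.5% and 49.6% of all genes did.

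**Figure D4:**
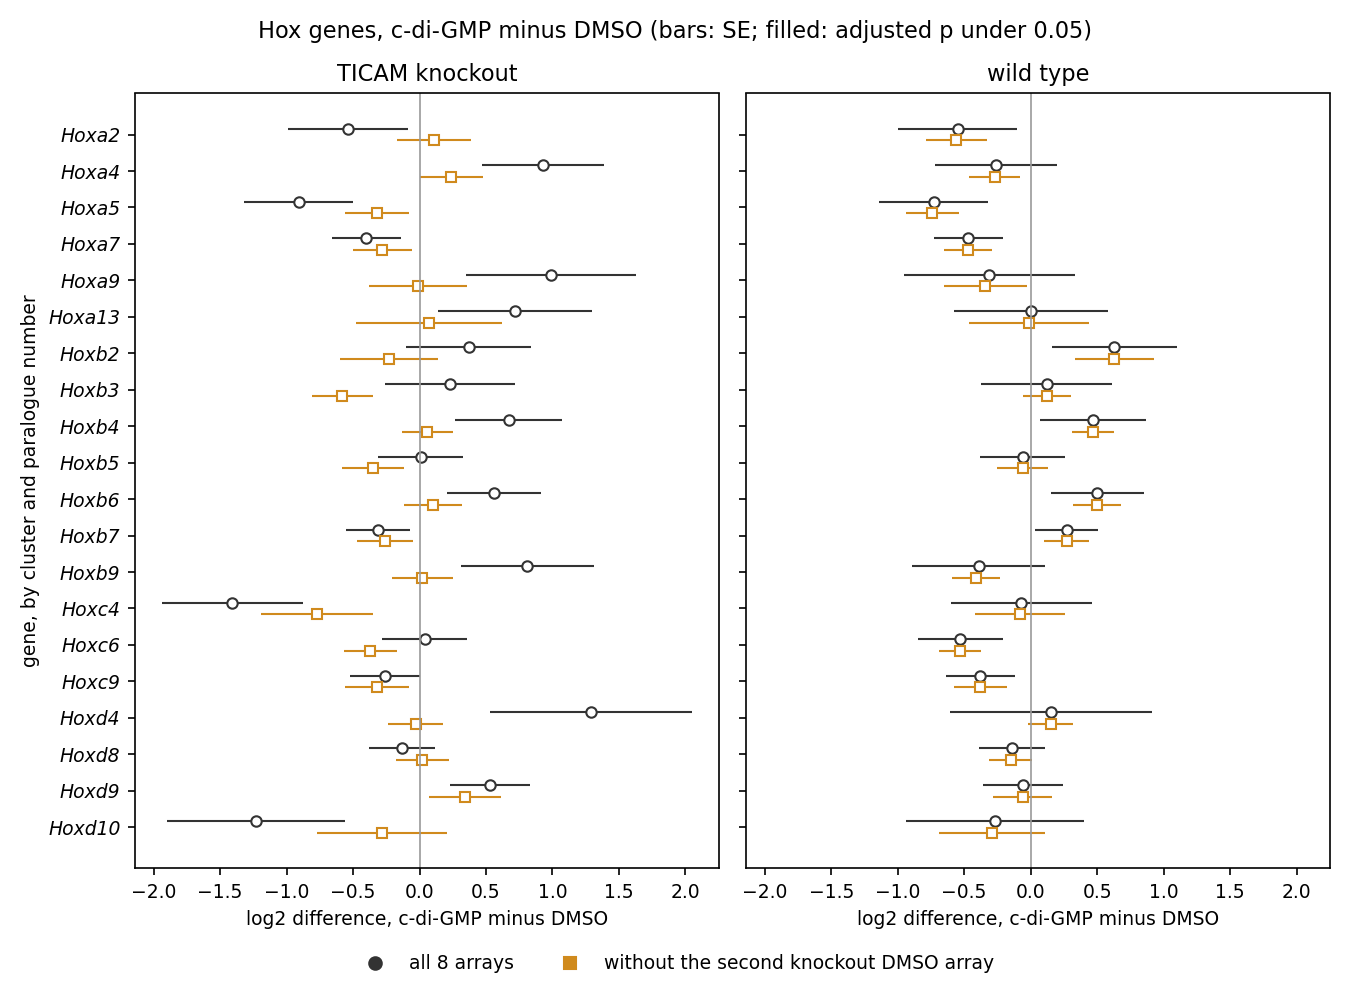
Log2 difference, c-di-GMP minus DMSO, of 20 of the 21 Hox genes tested, in knockout cells (left) and wild-type cells (right), as black circles with all 8 arrays and orange squares without the weak array, with the SE as bars. No symbol is filled, since none passed, and the circles run from -1.41 to 1.29 in knockout cells and from -0.73 to 0.63 in wild-type cells.

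Genes that work with or upstream of the Hox genes were counted in the same comparisons. Of 8 tested Hox cofactors of the Pbx, Meis and Pknox families, which bind DNA together with Hox proteins, 0 passed with c-di-GMP or with DMSO, and 0 and 1 had an unadjusted p under 0.05. The smallest p with c-di-GMP were those of Pknox1 (0.92 ± 0.43, limma adjusted p = 0.228) and Pknox2 (-0.77 ± 0.44, limma adjusted p = 0.326). The median of the 8 was -0.56 with c-di-GMP and -0.01 with DMSO. On the 7 brighter arrays 1 rose and 3 fell with c-di-GMP, and 0 rose and 1 fell with DMSO.

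Of 15 tested Polycomb and trithorax genes, which keep Hox genes silent or active, 2 were higher in knockouts given c-di-GMP, and 1 was higher and 1 lower with DMSO (median differences 0.93 and 0.28, or 0.91 and 0.28 with genes undetected in 1 genotype at their bound). Ezh2, the enzyme that writes the silencing mark of Polycomb, had signals of 1787 and 2268 in knockout cells given c-di-GMP, 2021 and (weak array) 341 in those given DMSO, against 186.5 and 568 in wild-type cells given c-di-GMP, and 734 and 381 in those given DMSO. It rose by 2.12 ± 0.34 with c-di-GMP (limma adjusted p = 0.00867) and by 1.37 ± 0.34 with DMSO (limma adjusted p = 0.0447), or by 2.13 ± 0.20 and 1.77 ± 0.25 without the weak array. Kdm6a, which removes that mark, rose by 1.21 ± 0.30 with c-di-GMP (limma adjusted p = 0.0439), and with DMSO its difference was 0.94 ± 0.30 (limma adjusted p = 0.0927). Its relative Kdm6b, named after its values were seen, fell by 1.28 ± 0.25 with DMSO (limma adjusted p = 0.0197). Over the 7 brighter arrays 9 rose and 2 fell with c-di-GMP, and 3 rose and 2 fell with DMSO.

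In the retinoic acid pathway, whose signal switches on genes at the 3′ end of the clusters, 9 genes were tested. With c-di-GMP 1 rose and 2 fell in knockout cells, and with DMSO 1 rose and 1 fell (median differences 0.45 and 0.18, or 0.24 and 0.00 with undetected genes at their bound). Crabp1, a cytoplasmic binding protein for retinoic acid, had signals of 2458 and 3536 in knockout cells given c-di-GMP, 4092 and (weak array) 293 in those given DMSO, against 96 and 164 in wild-type cells given c-di-GMP, and 168 and 128 in those given DMSO. It rose by 5.37 ± 0.70 (limma adjusted p = 0.00367) and 4.67 ± 0.70 (limma adjusted p = 0.00773), or by 5.49 ± 0.18 and 6.00 ± 0.23 without the weak array. Aldh1a3, which makes retinoic acid, had signals of 115.5 and 122 in knockout cells given c-di-GMP, 122 and (weak array) 126 in those given DMSO, against 234 and 819 in wild-type cells given c-di-GMP, and 794.5 and 443 in those given DMSO. It was detected on no knockout array and was at least 11.8-fold lower in knockouts given c-di-GMP and at least 5.51-fold lower with DMSO (limma adjusted p = 0.000169 and 0.00023). Aldh1a1, of the same family and named after its values were seen, fell by 1.70 ± 0.44 with c-di-GMP (limma adjusted p = 0.0479). With the weak array omitted 3 rose and 2 fell with c-di-GMP, and 1 rose and 1 fell with DMSO.

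Other genes that mark position in the limb, face or trunk mesenchyme also differed. Of 15 tested, 5 were higher and 1 lower in knockout cells in both comparisons (median differences 0.73 and 0.65, or 0.54 and 0.50 with undetected genes at their bound). Meox1, a gene of the somites, was not detected on any wild-type array and was at least 4.85-fold higher in knockouts given c-di-GMP and at least 7.48-fold higher with DMSO. Foxf2, of facial and gut mesenchyme, was likewise undetected there and was at least 3.88-fold higher with c-di-GMP. Its 3.85-fold with DMSO takes in the weak array, which did not detect it, and is not a bound. Shox2, a limb gene, rose by 1.79 ± 0.31 and 1.48 ± 0.31, and Dlx1, a gene of the face and forebrain, by 1.68 ± 0.27 with c-di-GMP and at least 5.84-fold with DMSO, where no wild-type array detected it. Without the weak array Shox2 rose by 1.87 ± 0.24 and 1.75 ± 0.29. The limma adjusted p of these 4 genes were 0.0115 or less with c-di-GMP and 0.0269 or less with DMSO. Without the weak array 9 rose and 3 fell with c-di-GMP, and 8 rose and 2 fell with DMSO.

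Of 6 tested neighbours and non-clustered relatives of the Hox genes, Cbx5, next to the Hoxc cluster, rose by 1.57 ± 0.39 with c-di-GMP (limma adjusted p = 0.0431), and 0 passed with DMSO (median differences -0.14 and 0.34). Snx10 had the next smallest p with c-di-GMP, with a difference of -1.16 ± 0.35 (limma adjusted p = 0.0748). Evx1 and Evx2, the even-skipped relatives beside the 5′ ends of Hoxa and Hoxd, were detected on no array. Without the weak array 1 rose and 1 fell of 5 tested with c-di-GMP, and 1 rose and 0 fell with DMSO.

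Markers of other cell types moved with genotype as well, where 13.9% of all genes tested passed with c-di-GMP and 12.7% with DMSO. Of 10 leukocyte markers on the array, 4 (Lyz2, Adgre1, Cd52 and Laptm5) were detected on all 4 wild-type arrays and on no knockout array, and fell in both comparisons. Lyz2, lysozyme of macrophages and granulocytes, had signals of 112 and 137 in knockout cells given c-di-GMP, 127 and (weak array) 156 in those given DMSO, against 825.5 and 2346 in wild-type cells given c-di-GMP, and 3214 and 1844 in those given DMSO. It was at least 42.4-fold lower in knockouts given c-di-GMP and at least 26.1-fold lower with DMSO. The summed signal of the 10 was 1401 to 1608 on the knockout arrays and 2168 to 7368.5 on the wild-type arrays. These sums are of signals before normalisation, undetected probes included. Ptprc and Itgam, which mark leukocytes in general and myeloid cells, were detected on no array. Cd14, named after its values were seen, went the other way on the 7 brighter arrays, by 1.26 ± 0.16 with c-di-GMP and 0.94 ± 0.20 with DMSO. With all arrays its differences of 1.22 ± 0.54 and 0.02 ± 0.54 did not pass. Of the 8 tested, 0 were higher and 4 lower both with c-di-GMP and with DMSO (median differences -2.90 and -2.83, or -2.21 and -2.0 with undetected genes at their bound), and without the weak array 1 was higher and 6 lower, and 1 higher and 4 lower. Hoxa and Hoxb genes are also expressed in precursors of blood cells. The part of leukocyte RNA in any Hox difference was not tested.

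Among 12 fibroblast markers 3 were higher and 3 lower in knockouts given c-di-GMP, and 4 higher and 2 lower with DMSO (median differences 0.63 and -0.12, or 0.30 and -0.31 with undetected genes at their bound). Pdgfra, Thy1 and S100a4 rose in both, by 3.03 ± 0.39, 1.42 ± 0.25 and 1.56 ± 0.30 with c-di-GMP, and Col1a1 (-2.14 ± 0.42 with c-di-GMP) and Fap (-2.12 ± 0.38 with c-di-GMP) fell in both. Without the weak array 6 rose and 4 fell, and 5 rose and 4 fell. Of the muscle and cartilage markers 1 of 6 was higher (Sox9, 2.53 ± 0.29) and 1 lower (Acta1, -1.98 ± 0.36) with c-di-GMP, and 1 was higher and 2 lower with DMSO. Of the 2 endothelial markers tested (Kdr and Tek) and the 2 epithelial ones (Cdh1 and Cldn7), 0 passed in either comparison. Of the 3 neural markers 0 passed with c-di-GMP and 1 was lower with DMSO, Nes with -2.67 ± 0.62. Without the weak array 1 of 5 muscle and cartilage markers was higher and 1 lower with c-di-GMP, and 1 was higher and 2 lower with DMSO. The 2 endothelial markers again did not pass, and of the epithelial ones Cldn7 was higher with c-di-GMP (1.31 ± 0.39, limma adjusted p = 0.0326) and neither passed with DMSO. Of 2 neural markers then tested, 0 were higher and 1 lower with c-di-GMP, and 1 was higher and 1 lower with DMSO. Nes fell by 1.67 ± 0.23 with c-di-GMP and fell by 1.70 ± 0.29 with DMSO. The summed signals of these 4 lists overlapped or lay close between the genotypes (for the endothelial list 723 to 1131 on the knockout arrays and 538 to 843 on the wild-type arrays). Such sums, taken before normalisation, include undetected probes and move with the brightness of each array, so they do not show equal marker content. The part of these cell types in the Hox differences was not tested.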

How the data were processed

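The main table that the authors deposited holds intensity values before normalization from single-colour Illumina bead arrays, made with GenomeStudio 2010.2 per the submitters' processing notes. A detection p-value stands beside each deposited signal, per the file headers. Whether background was subtracted before that is not stated in the sources used here. A second table of normalized intensity that the authors deposited served as an alternative.

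Current symbols came from the RefSeq gene table of GRCm38.p6. Of 25697 probes 20733 carried the current symbol, 126 matched through a gene number, 3867 through an older name, 940 kept the file's name, and 31 held a date in place of a name and stayed unnamed. The neqc function of limma 3.58.1 (R 4.3.3) corrected background by normexp, inferring negative controls from detection p-values, added an offset of 16, quantile normalized and took log2. A probe entered the test when 2 or more of the 8 arrays detected it at 0.05 (13026 probes). Each of 9559 genes was represented by its brightest probe on average. The limma model had 1 mean per group over all 8 arrays, with 4 residual and 2.77 prior degrees of freedom, two-sided tests and Benjamini-Hochberg adjustment at 0.05 over all genes. The procedure was checked on simulated data in which all arrays had the same spread, so the check held no weak array. The number of arrays limits the precision.

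Genes undetected on every array of a group have only a bound there, and the fold is then written as "at least". A bound leaves out the spread between arrays. No bound is claimed where the fold came out below 1 or the brighter group held a weak-array value that was not detected. Nor is one claimed for Hoxd10, whose interval is wide. The medians with undetected genes at their bound use the fold in all these cases. In a dimmer group, each undetected value was set no lower than the lowest detected value of its array, the weak array included. Values on every array are given for Hox genes that passed in any comparison or were detected on both arrays of a group. From the other lists the genes named are those past the threshold in both genotype comparisons, or otherwise the 2 with the smallest p with c-di-GMP. The Hox genes, the lists and the tests were chosen with earlier results of these data known. The labels give the groups replicate numbers 1 and 2. Deviations of same-numbered arrays from their group means correlated at -0.026 to 0.064, so the numbers were not taken to pair arrays. Alternatives were median scaling, no background correction, the authors' normalized table, no filter and a stricter one on dim probes, every probe tested, the replicate number as a block, and each array left out. A few genes that the counts include are not reported here by name.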

Additional observations from a re-analysis of the deposited data

How the results depend on the processing

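The counts of Hox genes that passed depended most on scaling and on single arrays. Under median scaling, which does not equalise the spread of the arrays, 1 Hox gene (knockout against wild type with c-di-GMP) and 0 Hox genes (with DMSO) passed, against 7 and 6 as reported. Of all genes 1.55% and 0.962% then passed, against 13.9% and 12.7% as reported. That scaling also moved the median difference of all genes to 0.46 with c-di-GMP, -0.63 with DMSO, 0.93 for c-di-GMP in knockout cells, -0.24 in wild-type cells and 1.17 for the difference of the responses. Leaving out 1 array at a time gave 3 to 14 Hox genes with c-di-GMP and 2 to 17 with DMSO. For c-di-GMP in knockout cells it gave 0 to 13, and for the difference of the responses 0 to 9. The 13 and the 9 came without the first knockout DMSO array. For c-di-GMP in wild-type cells it gave 0 each time.

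With the replicate number as a block, 7 Hox genes passed between genotypes given c-di-GMP, 5 between genotypes given DMSO and 0 in the other comparisons. Of all genes 11.2%, 9.8% and at most 0.126% passed in these. The authors' normalized table gave 9 and 9 (15.4% and 14.5% of all genes), and no background correction 9 and 9 (15.5% and 14.5%). No filter on dim probes gave 7 and 5 of 39 (7.16% and 6.13% of all genes), and a stricter filter 9 and 6 (15.9% and 14.4%). Every probe tested by itself gave 8 and 7, where 11.9% and 10.6% of all probes passed. With 2 arrays per group and a weak array among them, a call that failed does not show equal levels, and signals of the undetected probes are limited by background.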
